A study of Gallus gallus with 10 samples.

Results

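The genes described here are 9 genes that are widely used to see neurons and their axons in tissue: NEFL, NEFM, TUBB3, GAP43, STMN2, SYT1, SNAP25, ELAVL4 and UCHL1. They were chosen by name, with earlier results of these data known, although the rule itself uses no measured values. Each had 1 row of that name in the deposited table of 24355 chicken genes. The data are RNA sequencing of whole choroid, the vascular and pigmented coat behind the retina, from normal chicks at day 15 after hatching (strain given as Domesticus). The treated group consists of 5 choroids with PAPA-NONOate, a compound whose breakdown sets nitric oxide free, numbered 2, 3, 4, 5 and 8. The control group consists of 5 choroids labelled as minus PAPA-NONOate, with the same numbers. A single incubation text stands with both groups (24 hours at 37 °C, 5% CO2, and PAPA-NONOate at 1.5 mM), so what the controls were kept in is not stated. Treated samples carry the letter R and controls the letter L, so whatever the letters mark cannot be told apart from the treatment. The labels do not say that samples came from separate animals, and the p-values then measure only the spread between these samples.

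The choroid of birds is densely supplied by parasympathetic, sympathetic and sensory axons, whose cell bodies lie in ganglia outside the eye. It also holds neurons of its own, the intrinsic choroidal neurons, which are known to contain vasoactive intestinal peptide and to make nitric oxide. Axons carry little mRNA compared with cell bodies. In whole tissue, fewer cells of a type and less RNA per cell cannot be told apart.

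Values are FPKM, fragments scaled by transcript length and by the mapped total of the library, which allows levels to be compared between genes. Fold changes are PAPA-NONOate over control on the log2(FPKM + 0.5) scale, where changes of weakly expressed genes come out too small. A gene was tested when it reached 1 FPKM in at least 5 of the 10 libraries, and it passed at a Benjamini-Hochberg adjusted p under 0.05 in limma, adjusted over all 11357 genes tested. Of the 9 genes 8 were tested. The absolute depth is unknown, and from the steps in the lowest values the libraries had relative depths of 0.642 to 1. The highest summed FPKM was 1.53 times the lowest. The median of all tested genes was itself lower with PAPA-NONOate, with a log2 fold change of -0.18. For the 9 genes, changes relative to it are given for NEFL and where they differ in sense. PAPA-NONOate replicate 2 had the lowest summed FPKM. Where 5 values of a group are listed, they follow replicates 2, 3, 4, 5 and 8. The tissue markers were those of a vascular layer: the endothelial gene CDH5 was at 160 to 261 FPKM with PAPA-NONOate and at 218 to 290 FPKM in controls, and PECAM1 at 65.9 to 133 FPKM with PAPA-NONOate and 81.0 to 114 FPKM in controls.

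With PAPA-NONOate UCHL1 was higher and NEFL was lower than in control choroids, each without overlap between the groups. The other 6 tested genes did not pass, and STMN2 was too low to be tested. So 1 of 8 tested genes was called higher and 1 lower, while over all tested genes 1.93% were called higher and 7.41% lower (9.34% in either direction). The median log2 fold change of the 8 genes was -0.52, against -0.18 over all tested genes. The genes thus did not change as 1 block: their log2 fold changes ran from -1.27 (NEFL) to 1.53 (UCHL1).

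**Figure D1:**
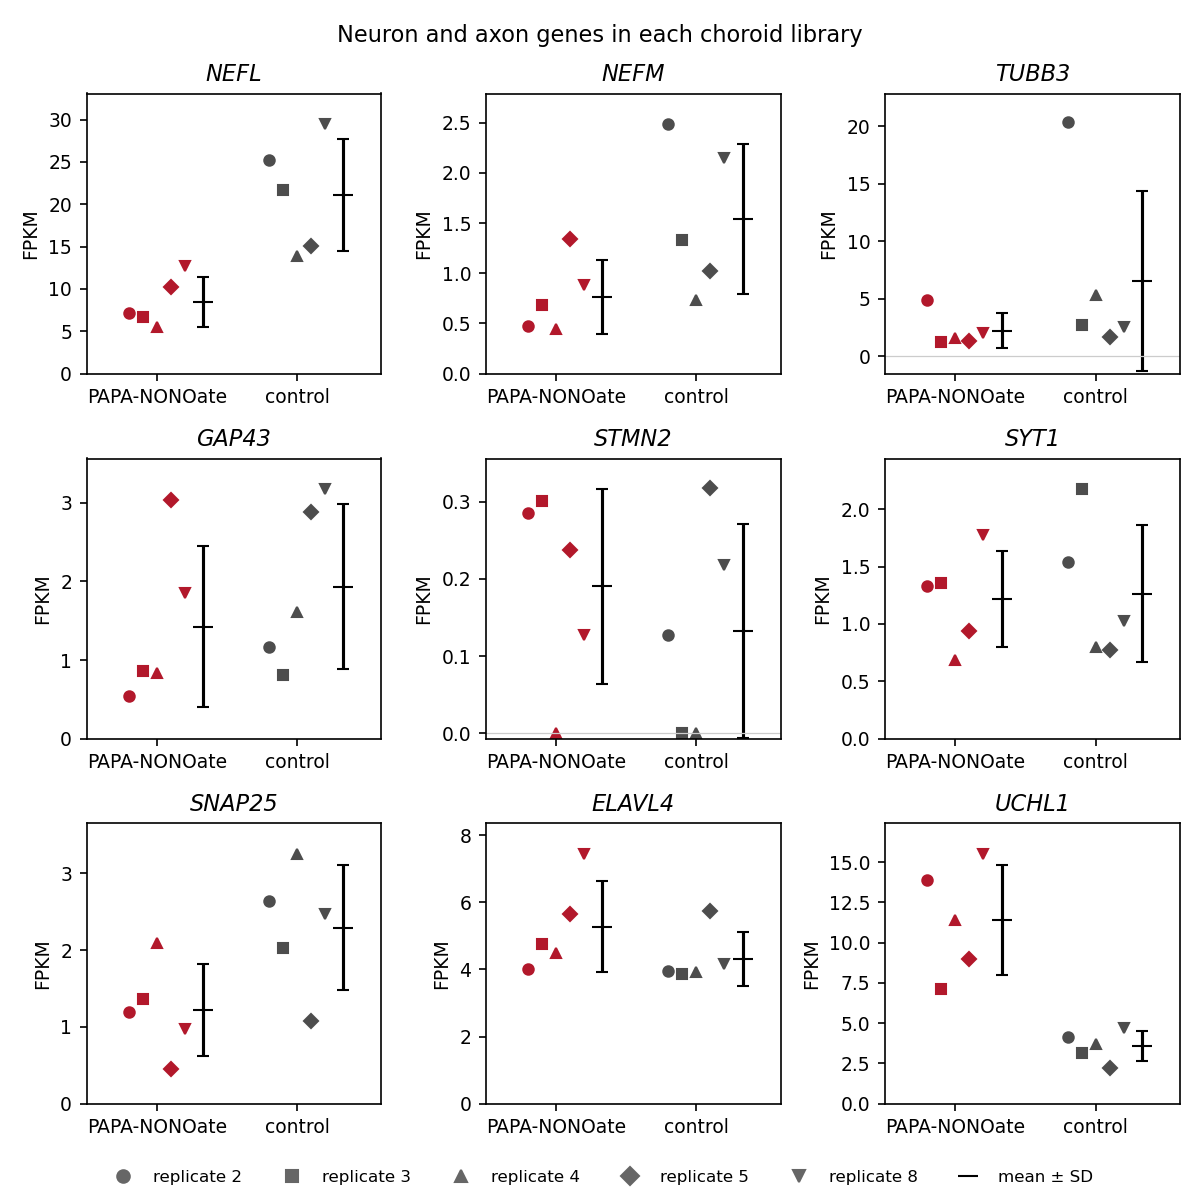
FPKM of the 9 genes in each library, 1 panel a gene, with PAPA-NONOate (red) left of control (grey), the symbols marking replicate numbers and the black bar the mean ± SD (n = 5). UCHL1 and NEFL separate the groups, the control mean of TUBB3 rests on replicate 2 at 20.4 FPKM, and STMN2 stays below 0.4 FPKM throughout.

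Neurofilaments are the intermediate filaments of axons and set their calibre. NEFL (ENSGALG00000000314), the light subunit on which the filament is built, was at 7.16, 6.66, 5.48, 10.2 and 12.7 FPKM with PAPA-NONOate, and at 25.3, 21.7, 13.9, 15.0 and 29.5 FPKM in controls. Every treated library lay below every control, although the highest treated value and the lowest control value, 12.7 and 13.9 FPKM, were close. The mean was 8.45 ± 2.96 FPKM with PAPA-NONOate and 21.1 ± 6.66 FPKM in controls (SD, n = 5 each). The log2 fold change was -1.27 (SE 0.25, 95% interval -1.81 to -0.73, adjusted p = 0.008 by limma), or -1.10 relative to the median of all genes. Groups without overlap were found for 9.32% of all tested genes.

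NEFM (ENSGALG00000000317), the medium subunit, was much less abundant. It was at 0.477, 0.688, 0.440, 1.34 and 0.884 FPKM with PAPA-NONOate and at 2.49, 1.33, 0.736, 1.02 and 2.14 FPKM in controls. Of the treated libraries 3 lay below all controls, and PAPA-NONOate replicates 5 and 8 lay within the control range. The means were 0.767 ± 0.369 FPKM with PAPA-NONOate and 1.54 ± 0.747 FPKM in controls (SD, n = 5 each), and the log2 fold change of -0.66 did not pass (95% interval -1.28 to -0.03, adjusted p = 0.157 by limma). NEFM reached 1 FPKM in 1 treated library and in 4 controls, so it was tested mainly through its control values.

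NEFL exceeded NEFM in every library, 7.59- to 15.0-fold with PAPA-NONOate and 10.1- to 18.9-fold in controls, ranges that overlap. The genes for both subunits are neighbours in the RefSeq gene order. As deviations from their group means they had the highest correlation of the 28 pairs among the 8 tested genes (Pearson r = 0.80 over 10 libraries, given as a description). The heavy subunit gene NEFH and the related filament gene INA stayed below 1 FPKM in every library and were not tested. The gene of peripherin, PRPH, an intermediate filament of peripheral neurons, varied from 0.492 to 5.44 FPKM with PAPA-NONOate and from 1.26 to 4.45 FPKM in controls, and did not pass (log2 fold change 0.07, adjusted p = 0.94).

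UCHL1 (ENSGALG00000014261) encodes a ubiquitin C-terminal hydrolase that is abundant in neurons and neuroendocrine cells and is stained to show nerve fibres. It was at 13.9, 7.15, 11.4, 9.01 and 15.5 FPKM with PAPA-NONOate, and at 4.11, 3.13, 3.70, 2.21 and 4.68 FPKM in controls. The lowest treated library, replicate 3, was still above the highest control, replicate 8. The mean was 11.4 ± 3.43 FPKM with PAPA-NONOate and 3.57 ± 0.948 FPKM in controls (SD, n = 5 each), a ratio of 3.19. The log2 fold change was 1.53 (SE 0.22, 95% interval 1.05 to 2.02, adjusted p = 0.00179 by limma).

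UCHL1 and NEFL changed places in level. The ratio of UCHL1 to NEFL was 0.883 to 2.08 with PAPA-NONOate and 0.145 to 0.266 in controls. UCHL1 was the more abundant of the pair in 4 of 5 treated libraries and in 0 of 5 controls. Between their deviations from the group means the r was 0.49 over 10 libraries, given as a description. It was not particular to this pair, since UCHL1 had an r of 0.49 with SNAP25 and of 0.53 with TUBB3.

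**Figure D2:**
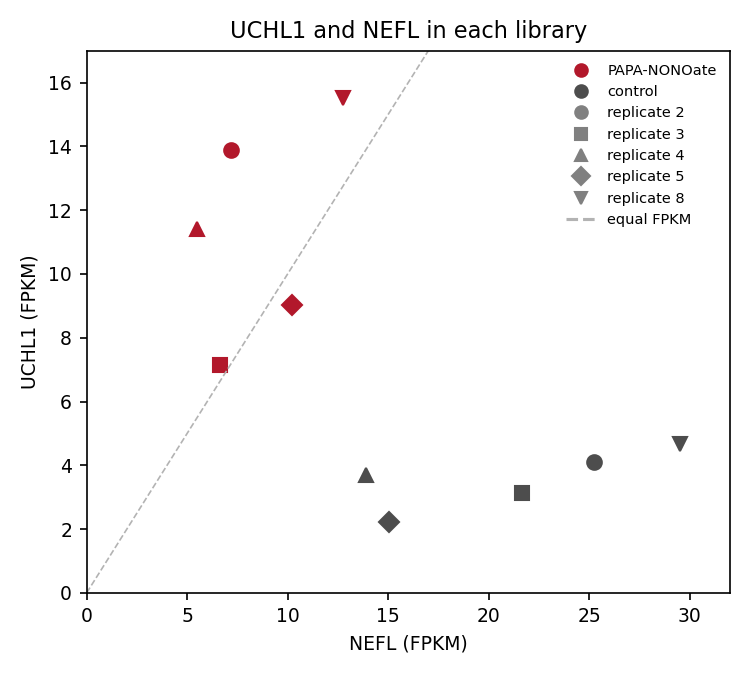
UCHL1 against NEFL in FPKM, 1 point a library, PAPA-NONOate in red and control in grey, with the dashed line marking equal FPKM. Treated libraries lie about the line, with UCHL1 to NEFL ratios of 0.883 to 2.08, and controls lie well under it at 0.145 to 0.266.

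TUBB3 (ENSGALG00000000059), the class III beta-tubulin of neuronal microtubules, was at 4.88, 1.25, 1.61, 1.31 and 2.04 FPKM with PAPA-NONOate. In controls it was at 20.4, 2.75, 5.35, 1.67 and 2.57 FPKM. Replicate 2 was the highest library of each group, and the other values of both groups lay between 1.25 and 5.35 FPKM. The log2 fold change of -0.97 did not pass (SE 0.53, 95% interval -2.11 to 0.17, adjusted p = 0.248 by limma), and without control replicate 2 it was -0.44. With replicate number as a block in the fit, the SE was 0.26 and TUBB3 still did not pass (adjusted p = 0.0513 by limma). It passed with the block and median-ratio scaling of the libraries together (-0.80, SE 0.21, adjusted p = 0.0438 by limma).

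Melanocyte markers, like TUBB3, were highest in replicate 2 of each group. The summed FPKM of 11 melanocyte genes was 200.1, 53.4, 99.99, 54.1 and 36.8 with PAPA-NONOate, and 511, 87.7, 182, 50.7 and 67.2 in the controls of the same numbers. None of the 6 tested melanocyte genes passed, and SLC24A5 was listed at 0 in every library. As deviations from the group means, TUBB3 and this sum had a Pearson r of 0.92 and a Spearman rho of 0.81 over 10 libraries, and an r of 0.64 over the 8 libraries not numbered 2. This relation was looked at after the values were seen and is a description. Next to TUBB3 in the RefSeq gene order lies MC1R, the melanocortin receptor gene of melanocytes. MC1R was at 1.49, 0.0669, 0.392, 0.0660 and 0.0350 FPKM with PAPA-NONOate and at 4.30, 0.219, 1.17, 0.249 and 0 FPKM in controls, again highest in replicate 2 of each group. The sources used here do not say how fragments of neighbouring or near-identical tubulin genes were divided, and the part of melanocytes in the TUBB3 values was not tested. DEF8, the neighbour on the other side, was at 4.12 to 7.23 FPKM with PAPA-NONOate and 5.88 to 8.05 FPKM in controls. The broadly expressed tubulin gene TUBB was at 844 ± 116 FPKM with PAPA-NONOate and 871 ± 133 FPKM in controls (SD, n = 5 each).

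**Figure D3:**
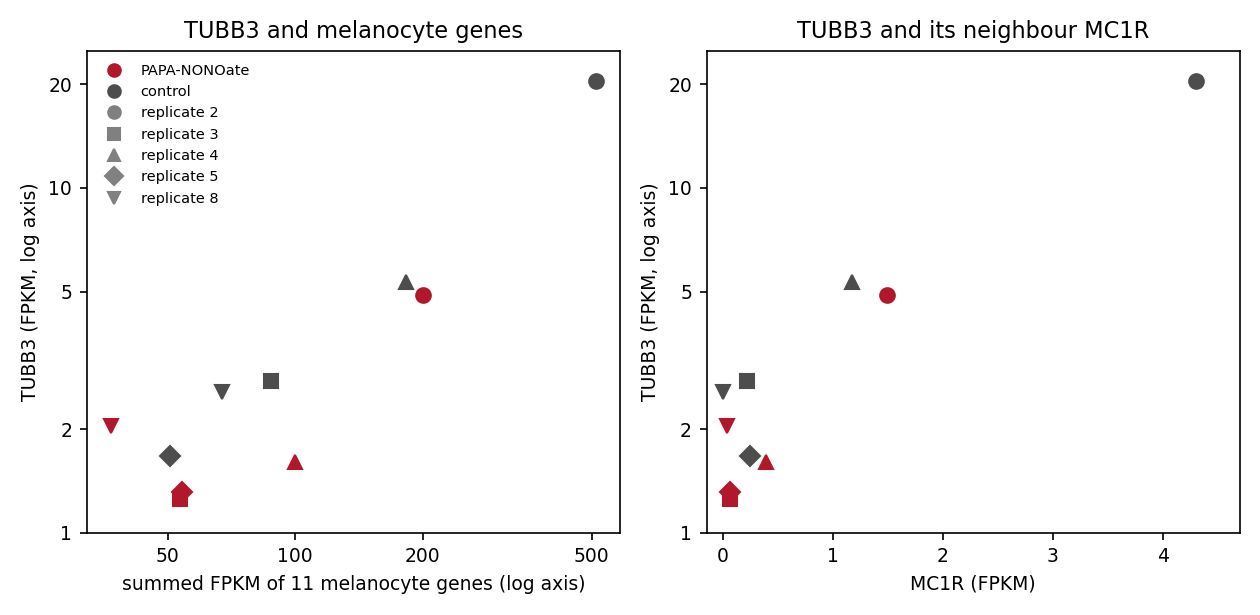
TUBB3 (FPKM, log axis) in each library against the summed FPKM of 11 melanocyte genes (left, log axis) and against MC1R (right, linear axis), PAPA-NONOate in red and control in grey. Both libraries numbered 2 and control replicate 4 lie highest in TUBB3, in melanocyte genes and in MC1R.

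GAP43 and STMN2 belong to growing axons. GAP43 (ENSGALG00000015089), a growth cone membrane protein, was at 0.542, 0.861, 0.835, 3.03 and 1.85 FPKM with PAPA-NONOate and at 1.17, 0.816, 1.61, 2.88 and 3.18 FPKM in controls. In both groups replicates 5 and 8 were the highest libraries. The log2 fold change was -0.37, with a 95% interval of -1.18 to 0.43 (adjusted p = 0.536 by limma), an interval that spans both directions. STMN2 (ENSGALG00000039690), which destabilizes microtubules in growing axons, was at 0 to 0.301 FPKM with PAPA-NONOate and at 0 to 0.318 FPKM in controls. It was listed at 0 in 1 treated library and 2 controls. Without the expression filter its log2 fold change was 0.13 (95% interval -0.25 to 0.51, adjusted p = 0.689 by limma), at levels where the pseudocount limits any change.

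SYT1 and SNAP25 act in the release of transmitter. SYT1 (ENSGALG00000041094), the calcium sensor of synaptic vesicles, was at 1.33, 1.35, 0.688, 0.940 and 1.77 FPKM with PAPA-NONOate and at 1.54, 2.18, 0.796, 0.772 and 1.03 FPKM in controls. The ranges overlapped almost fully, and the log2 fold change was -0.01 (95% interval -0.58 to 0.56, adjusted p = 0.982 by limma), a sign that turned with the scaling of the libraries. Relative to the median of all genes, the change of SYT1 was 0.17. SYT11, a more broadly expressed relative of SYT1, was at 36.6 ± 7.07 FPKM with PAPA-NONOate and 43.1 ± 5.68 FPKM in controls (SD, n = 5 each). SNAP25 (ENSGALG00000009003), a SNARE protein of the presynaptic membrane, was at 1.20, 1.36, 2.10, 0.457 and 0.971 FPKM with PAPA-NONOate and at 2.64, 2.02, 3.26, 1.08 and 2.46 FPKM in controls. Replicate 4 was the highest and replicate 5 the lowest in both groups. Its log2 fold change of -0.72 did not pass (SE 0.29, 95% interval -1.35 to -0.09, adjusted p = 0.129 by limma). SNAP23, the relative of SNAP25 in most other cells, was at 14.6 ± 0.760 FPKM with PAPA-NONOate and 16.1 ± 1.26 FPKM in controls (SD, n = 5 each).

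ELAVL4 (ENSGALG00000010533), a neuronal RNA-binding protein that stabilizes mRNAs, varied least of the 9 genes relative to its mean in both groups. It was at 4.002, 4.77, 4.49, 5.66 and 7.46 FPKM with PAPA-NONOate and at 3.94, 3.85, 3.91, 5.73 and 4.15 FPKM in controls. Only PAPA-NONOate replicate 8 exceeded all controls, and the log2 fold change of 0.25 did not pass (95% interval -0.13 to 0.62, adjusted p = 0.379 by limma). Its broadly expressed relative ELAVL1 was at 85.0 ± 10.2 FPKM with PAPA-NONOate and 97.5 ± 11.7 FPKM in controls (SD, n = 5 each). The neuronal relative ELAVL2 stayed at or below 1.04 FPKM with PAPA-NONOate and 1.09 FPKM in controls.

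**Figure D4:**
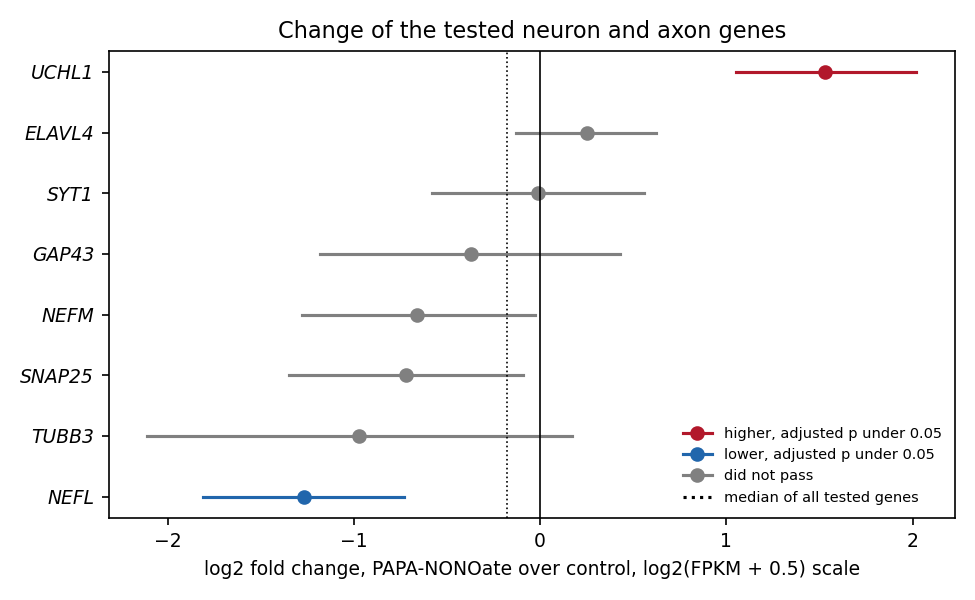
Log2 fold changes of the 8 tested genes, PAPA-NONOate over control, with 95% intervals from limma, the dotted line marking the median of all tested genes at -0.18. UCHL1 lies at 1.53 and NEFL at -1.27, both called, and the intervals of NEFM and SNAP25 end just below 0 without passing the adjustment over all genes.

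In order of mean level, UCHL1 (11.4 FPKM), NEFL (8.45 FPKM), ELAVL4 (5.27 FPKM) and TUBB3 (2.22 FPKM) came first with PAPA-NONOate. In controls the order was NEFL (21.1 FPKM), TUBB3 (6.55 FPKM), ELAVL4 (4.32 FPKM) and UCHL1 (3.57 FPKM). GAP43, SYT1, SNAP25 and NEFM followed at 0.767 to 1.43 FPKM with PAPA-NONOate and at 1.26 to 2.29 FPKM in controls. The ranges of neighbours in the order overlapped in each group, except that STMN2 lay below all libraries of the gene before it, NEFM with PAPA-NONOate and SYT1 in controls. NEFL was above the next gene in each of the 5 libraries of either group, ELAVL4 with PAPA-NONOate and TUBB3 in controls.

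The 28 pairwise correlations among the 8 tested genes, as deviations from the group means after subtracting each library's median, had a median r of 0.17 and ran from -0.69 (SNAP25 with GAP43) to 0.80 (NEFL with NEFM). Of these pairs 19 were positive. The genes outside the 9 that were most like the mean deviation of the 8 were GNE, SBDS, LYRM1, DDX49, PUS7, COPS3, COPS9 and PPM1B, with r of 0.92 to 0.96 over 10 libraries, out of 8516 named genes with a mean of at least 2 FPKM. They were picked as the highest of all these correlations, so their high r follows in part from the picking and is a description only. None of these 8 passed the test between the groups.

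Other genes of neurons were followed in 5 lists with 91 symbols, of which 79 were found and 36 tested. Of the 36, 1 rose and 5 fell, beside 1.93% higher and 7.41% lower over all tested genes. These 6 calls depended on the libraries included: they numbered 3 without PAPA-NONOate replicate 3, 4 or 8, 2 without control replicate 2 or 3, and 10 without PAPA-NONOate replicate 5. Of 14 tested genes of the neuronal cytoskeleton and axon growth 0 rose, 3 fell and 11 did not pass, with a median log2 fold change of -0.24. NCAM1, a neural cell adhesion molecule, was at 11.3, 12.9, 13.8, 23.7 and 13.9 FPKM with PAPA-NONOate and at 31.7, 25.8, 27.7, 31.3 and 26.4 FPKM in controls. The groups did not overlap, with PAPA-NONOate replicate 5 nearest to the controls (log2 fold change -0.94, SE 0.17, adjusted p = 0.006 by limma). DCX, a microtubule protein of young neurons, was at 0.361 to 1.19 FPKM with PAPA-NONOate and at 1.23 to 4.80 FPKM in controls (log2 fold change -1.32, adjusted p = 0.0196 by limma). DCX reached 1 FPKM in 1 treated library and in 5 controls, so it was tested through its control values. It was not called once control replicate 2 or 3 was left out (adjusted p = 0.0525 and 0.0504). CRMP1, which acts in semaphorin signalling in axons, was at 18.3 ± 3.69 FPKM with PAPA-NONOate and 32.3 ± 10.03 FPKM in controls (SD, n = 5 each; log2 fold change -0.78, adjusted p = 0.033 by limma). It was not called once control replicate 2, 3 or 8 or PAPA-NONOate replicate 2, 3 or 4 was left out, with an adjusted p of at most 0.0763, nor after median-ratio scaling of the libraries (adjusted p = 0.0607). The axonal microtubule protein genes MAP1B (0.57, adjusted p = 0.0506) and MAPT (-0.58, adjusted p = 0.11) did not pass, with log2 fold changes in parentheses.

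Of 8 tested genes of synaptic vesicles and release 1 rose, 0 fell and 7 did not pass, with a median log2 fold change of -0.16. The gene that rose was SYP, synaptophysin, an integral vesicle protein, at 7.56, 4.88, 5.64, 5.34 and 5.23 FPKM with PAPA-NONOate and at 5.08, 2.65, 3.68, 2.73 and 2.92 FPKM in controls. Control replicate 2 lay above 1 treated library, and all other controls lay below every treated library (log2 fold change 0.69, SE 0.18, adjusted p = 0.0343 by limma). SYP was not called once control replicate 3, 4, 5 or 8 or PAPA-NONOate replicate 2, 3, 4 or 8 was left out, with an adjusted p of at most 0.0838. The 3 tested neuronal RNA-binding genes, NOVA1 (-0.40), KHDRBS2 (0.07) and RBFOX3 (0.18), did not pass, with log2 fold changes in parentheses.

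Of 9 tested genes of autonomic neurons 0 rose, 1 fell and 8 did not pass, with a median log2 fold change of -0.49. HAND2, a transcription factor of autonomic neurons that other cells also express, was at 17.6 to 47.7 FPKM with PAPA-NONOate and 29.5 to 41.2 FPKM in controls. VIP, the peptide of intrinsic choroidal neurons, was at 1.44 ± 0.627 FPKM with PAPA-NONOate and 2.25 ± 0.972 FPKM in controls (SD, n = 5 each; log2 fold change -0.49, adjusted p = 0.313). NOS1, the neuronal nitric oxide synthase, was above 0 in 1 library of each group, replicate 3, at 0.0602 FPKM with PAPA-NONOate and 0.0188 FPKM in control. TH, the enzyme of catecholamine neurons, was listed at 0 in all treated libraries and reached 0.0574 FPKM in 1 control.

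The autonomic gene that fell was GFRA3, a co-receptor for artemin that is also a Schwann cell marker. It was at 0.627, 3.64, 2.58, 3.62 and 0.575 FPKM with PAPA-NONOate and at 11.3, 15.2, 2.28, 4.89 and 16.5 FPKM in controls, with control replicate 4 inside the treated range (log2 fold change -1.91, SE 0.54, adjusted p = 0.0436 by limma). This call was lost in 16 of 20 other settings, with an adjusted p of at most 0.176. Among these were the settings that left out control replicate 2, 3, 5 or 8 or PAPA-NONOate replicate 2, 4 or 8. Of 2 tested sensory neuron genes the mechanosensitive channel gene PIEZO2 fell, at 0.769 to 3.18 FPKM with PAPA-NONOate and 3.04 to 8.33 FPKM in controls (log2 fold change -1.25, adjusted p = 0.0255), and the peptide gene CALCA did not pass (0.06). PIEZO2 was not called once control replicate 2 or 4 or PAPA-NONOate replicate 3 or 8 was left out, with an adjusted p of at most 0.0681, or once both libraries numbered 2 were (adjusted p = 0.0934). The defining sensory gene TRPV1 was at most 0.0758 FPKM with PAPA-NONOate and 0.0942 FPKM in controls. TRPA1, a channel of sensory neurons that is also among them, was at 0.337 to 0.833 FPKM with PAPA-NONOate and 0.0464 to 0.371 FPKM in controls, with 4 of 5 treated libraries above all controls, and was too low to be tested.

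**Figure D5:**
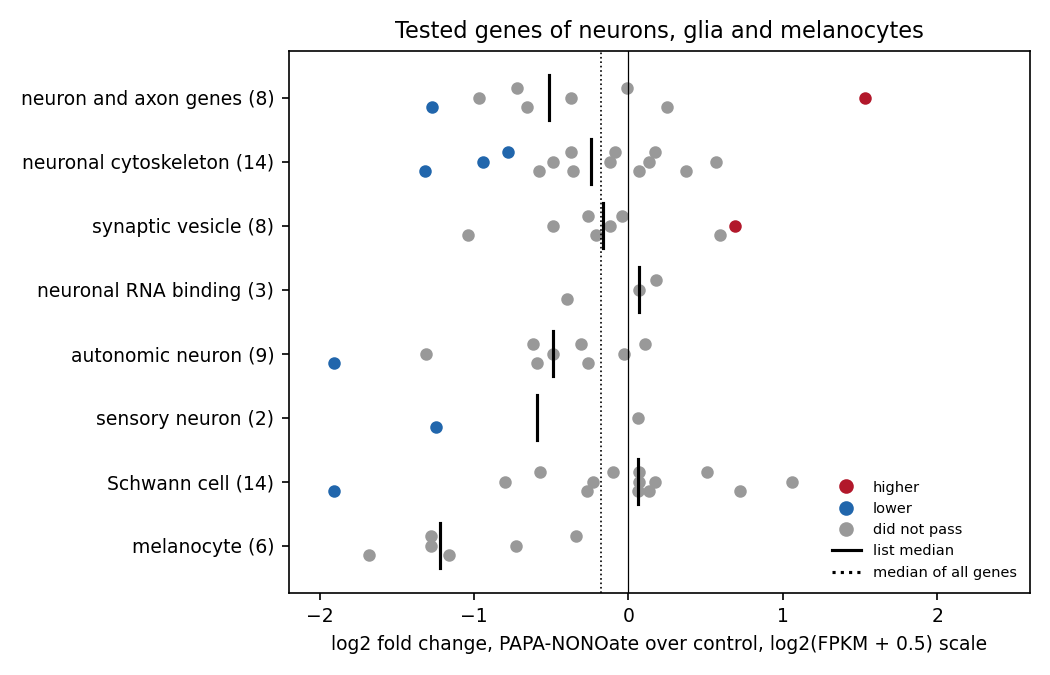
Log2 fold changes of the tested genes in each list, PAPA-NONOate over control, 1 point a gene, with the number tested in parentheses, black bars at list medians and the dotted line at the median of all tested genes (-0.18). At most 3 genes are called in any list, with 3 of 14 for the neuronal cytoskeleton and 1 of 2 for sensory neurons. Over all tested genes 9.34% were called. The 6 melanocyte genes lie at -1.68 to -0.34 without any call.

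Genes of axon injury, known from rodent ganglia, were listed because the tissue was cut. Of 9 tested genes 2 rose, 0 fell and 7 did not pass, beside 1.93% higher and 7.41% lower over all tested genes. ATF3, a transcription factor of injured neurons and of stressed cells of many kinds, was at 110.4 ± 14.8 FPKM with PAPA-NONOate and 72.2 ± 10.05 FPKM in controls (SD, n = 5 each; log2 fold change 0.61, adjusted p = 0.014). KLF6 was at 93.7 ± 15.5 FPKM with PAPA-NONOate and 59.6 ± 7.34 FPKM in controls (SD, n = 5 each; log2 fold change 0.64, adjusted p = 0.0147). Both genes are well above the levels of the 9 neuron and axon genes and are expressed in many cell types.

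Markers of Schwann cells, which wrap the choroidal axons, were mostly not called. Of 14 tested genes 0 rose, 1 (GFRA3) fell and 13 did not pass, and the summed FPKM of 16 genes was 313 to 527 with PAPA-NONOate and 346 to 482 in controls. SOX10, a transcription factor of Schwann cells and melanocytes, was at 23.9 to 41.9 FPKM with PAPA-NONOate and 31.97 to 47.6 FPKM in controls. Within groups, the deviations of NEFL followed those of this sum with an r of 0.75 and those of UCHL1 with an r of 0.64 (10 libraries, as a description). These are 2 of 48 such values, for 8 genes and 6 marker sums, which ran from -0.68 to 0.92. Others of like size were SNAP25 with the photoreceptor sum (0.82), NEFM with the Müller glia sum (0.80) and UCHL1 with the inner retina sum (0.66, and 0.90 over the 8 libraries not numbered 2). The photoreceptor sum was at most 1.93 FPKM in any library. Most of the Müller glia sum came from GLUL, which many cells express. With PAPA-NONOate the sum was 53.2 to 163.6 FPKM and GLUL alone 46.0 to 153 FPKM.

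The retina is the other neural tissue that a dissected choroid could carry. Photoreceptor markers were at or near 0: of 17 genes found 5 were at 0 in every library, PDE6H and ARR3 among them, and the sum of the list was 1.08 to 1.93 FPKM with PAPA-NONOate and 0.439 to 1.38 FPKM in controls. Of the defining genes of inner retinal neurons POU4F2 was at 0 in every library, and GAD1 was at most 0.0103 FPKM with PAPA-NONOate and 0.00966 FPKM in controls. TRPM1, a gene of bipolar cells that melanocytes also express, was the exception at up to 2.11 FPKM with PAPA-NONOate and 4.04 FPKM in controls. The sum of all 22 inner retina genes found was 197 to 292 FPKM with PAPA-NONOate and 167 to 261 FPKM in controls, carried by THY1 and SLC6A9. Of pigment epithelium markers RGR was at 0 throughout and RPE65 at most 0.220 FPKM with PAPA-NONOate and 0.199 FPKM in controls. LRAT, a retinoid enzyme gene of that list, fell, at 0.552 to 1.08 FPKM with PAPA-NONOate and 1.11 to 2.89 FPKM in controls (log2 fold change -0.96, adjusted p = 0.0224 by limma), and was not called once control replicate 2 or 8 or PAPA-NONOate replicate 4 or 8 was left out (adjusted p at most 0.0646). LRAT reached 1 FPKM in 1 treated library and in 5 controls, so it too was tested through its control values. Of Müller glia markers RLBP1 was at most 0.131 FPKM with PAPA-NONOate and 0.288 FPKM in controls, while GLUL, which many cells express, was at 46.0 to 153 FPKM with PAPA-NONOate and 47.7 to 120.4 FPKM in controls. AQP4, the other defining gene of the Müller glia list, was at 0.529 to 5.21 FPKM with PAPA-NONOate and 1.53 to 1.97 FPKM in controls. Of its treated libraries 4 of 5 lay below all controls, and it did not pass (log2 fold change -0.49, adjusted p = 0.251 by limma).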

How the data were processed

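Poly(A)-selected, strand-specific libraries were made from 100 ng of total RNA, per the labels' protocols. The authors deposited FPKM in 1 table. Cufflinks and SAMtools were used with build GRCg6a, per the submitters' processing notes; the notes give no versions, and no aligner or annotation release was found in these sources. In all, 14 values at 999999999, in 10 genes, were read as missing, and those genes were not tested. The files hold no counts, so no counting intervals are given. Relative depth is the commonest ratio between libraries of values under 0.15 FPKM, with control replicate 2 at 1.

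Groups were taken from sample titles. The test was limma 3.58.1 in R 4.3.3 (mean-variance trend, 8 residual and 4.83 prior degrees of freedom) on log2(FPKM + 0.5), with at least 1 FPKM in at least 5 libraries, tried on simulated data. Figures were drawn with matplotlib 3.10.9. Gene neighbours came from RefSeq's GRCg7b table, with no coordinates used. The 9 genes and the lists were chosen with earlier results of these data known. The text names all 9, up to 4 called genes a list by adjusted p, defining markers, 7 genes given whatever their values, and the 8 most similar genes, except that some list genes are not reported here; MAP1B, MAPT, PRPH, NEFH, INA, ELAVL2, DEF8, MC1R and uncalled list members were added after values were seen. Alternatives were 2 pseudocounts, 2 filters, 2 scalings, a block for replicate number (alone and together with median-ratio scaling), library weights, no trend, each library left out, and, added after the data were seen, both libraries numbered 2 left out.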

Additional observations from a re-analysis of the deposited data

Results flagged for a closer look

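A library was singled out when its gap to the nearest other library of its group exceeded 0.71 of the group's range. Chance gives this for about 1 in 20 groups of normally distributed values, which FPKM need not be. A group with 1 library above 0 and the rest at 0 always meets the rule. In 50 groups of 5 libraries 9 values were singled out, a number not to be read as an excess. TUBB3 stood apart in PAPA-NONOate replicate 2 (4.88 FPKM) and in control replicate 2 (20.4 FPKM), the libraries with the highest melanocyte sums of their groups. ELAVL4 was high in control replicate 5 (5.73 FPKM). Among the other genes named, NCAM1 was high in PAPA-NONOate replicate 5 (23.7 FPKM), SYP in PAPA-NONOate replicate 2 (7.56 FPKM) and PIEZO2 in control replicate 2 (8.33 FPKM). NOS1 was above 0 only in PAPA-NONOate replicate 3 (0.0602 FPKM) and control replicate 3 (0.0188 FPKM), and TH only in control replicate 2 (0.0574 FPKM), each against 0 in the rest of its group.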

How the results depend on the processing

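UCHL1 and NEFL kept their direction and their call in all 21 alternatives, with log2 fold changes of 1.39 to 1.78 and of -1.43 to -1.08 and adjusted p-values up to 0.00909 and 0.0449 in limma. NEFM, ELAVL4, SNAP25 and GAP43 stayed uncalled in the alternatives that tested them, which at 5 FPKM left UCHL1 and NEFL as the 2 tested. TUBB3, at -0.97, did not pass with the replicate block (-0.97, adjusted p = 0.0513) and passed with the replicate block and median-ratio scaling together (-0.80, adjusted p = 0.0438). SYT1, at -0.01, turned to 0.13 after median-ratio scaling with or without the replicate block and to 0.30 after quantile normalization, and ran from -0.12 to 0.16 with 1 library left out. With the replicate block alone 893 genes were called, 2 of the 9 among them, and of the listed neuron genes 6. With that block the SE was 0.20 for SNAP25 (-0.72, adjusted p = 0.0577 by limma) and 0.23 for GAP43 (-0.37, adjusted p = 0.325 by limma). Same-numbered libraries had correlations of -0.0229 to 0.303, and the own number was highest for 3 of 5 (a hint from the data only). These values do not decide whether the numbers mark pairs, and the main fit did not treat them as pairs.

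The 1061 genes called (219 higher, 842 lower) became 605 (449 lower) at 5 FPKM, 1807 (383 higher, 1424 lower) with library weights, 1856 (939 higher) with the block and median-ratio scaling, and 520 (325 lower) without both libraries numbered 2. Higher calls numbered 798 after median-ratio scaling and 733 after quantile normalization, beside 731 and 680 lower. With 1 library left out, calls ran from 502 to 1799, lower calls from 339 to 1579, and the 6 listed neuron genes called from 2 to 10. These 6 were 3 at 5 FPKM and 3 without both libraries numbered 2. The causes were not tested. The unknown depth limits what can be said of STMN2, NOS1 and TH.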
